A study of Homo sapiens with 6 samples.

Results

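The lysosomal hydrolases, lysosomal membrane proteins and subunits of the vacuolar proton pump were examined in human macrophages after knockdown of a long non-coding RNA. The set was made of 38 genes listed by name and of every row whose symbol starts with ATP6V0 or ATP6V1, which added 21, giving 59 of the 17042 rows of the count table. All 38 listed genes had a row. Polyadenylated RNA was sequenced from 3 knockdown and 3 control libraries of THP-1, an established human monocytic leukaemia cell line that takes on macrophage features when exposed to the phorbol ester PMA. In both groups the cells received 100 ng/mL PMA for 24 hours and then 20 ng/mL IL-4, a cytokine that drives alternative macrophage activation, for another 24 hours. The knockdown cells were transfected before IL-4 with siRNA from Qiagen against the long non-coding RNA RP11-184M15.1, with the reagent Lipofectamine RNAiMAX. What the control cells received in place of that siRNA is not stated in the labels, so an effect of transfection itself and an effect of the knockdown cannot be told apart. The labels do not say that the replicates were separate cultures, so a p-value here reflects library-to-library spread that may be technical.

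Lysosomes are acidic compartments in which proteins, glycans, lipids and nucleic acids taken up from outside or delivered by autophagy are broken down. The pump that acidifies them, the V-ATPase, has a membrane-embedded V0 part that carries protons and a cytosolic V1 part that hydrolyses ATP. Macrophages, which engulf dead cells and microbes, carry many lysosomes and transcribe these genes at high levels. Many lysosomal genes share a promoter element, the CLEAR motif with the core TCACGTGA, which is bound by the transcription factors TFEB and TFE3, and the related MITF also binds the M-box, TCATGTGA.

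RefSeq promoters on build GRCh38.p14, 250 bases before to 50 bases after each gene's start, were matched for 42 of the 59 members. The word TCACGTGA, which reads the same on both strands, lay in 7 of the 42 (16.7%), against 0.98% of all 35116 promoters in the table and 1.72% of the 14292 promoters of genes tested here. These are the members whose promoters hold the full word, shown with the word in capitals and 11 bases on each side, read 5′ to 3′ on the gene's strand; for GAA, LAMP1 and MCOLN1, which hold it more than once, the site furthest upstream is shown.
ATP6V0D1, chr16:67481199-67481228, minus strand: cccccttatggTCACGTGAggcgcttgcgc
ATP6V1G1, chr9:114587699-114587728, plus strand: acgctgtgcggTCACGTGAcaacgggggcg
CTSA, chr20:45891298-45891327, plus strand: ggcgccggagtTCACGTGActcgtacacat
GAA, chr17:80101493-80101522, plus strand: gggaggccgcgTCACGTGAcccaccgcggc
GALNS, chr16:88857104-88857133, minus strand: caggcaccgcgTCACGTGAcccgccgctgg
LAMP1, chr13:113297199-113297228, plus strand: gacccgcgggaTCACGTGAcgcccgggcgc
MCOLN1, chr19:7522571-7522600, plus strand: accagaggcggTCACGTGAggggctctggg
The shorter core CACGTG, which lies inside TCACGTGA, was present in 12 of 42 member promoters (28.6%), against 7.26% of all promoters and 9.41% of those of genes tested. A word match is a description of the sequence and says nothing on whether a factor bound there in these cells. TCACGTGA was searched because many lysosomal genes share it, so its higher share among the members is no finding of these data. The 14292 promoters outnumber the 13405 genes tested, so some genes count more than once in that share.

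The M-box word TCATGTGA, searched on both strands and so also as TCACATGA, lay in 4 of the 42 member promoters (9.52%), against 1.00% of all promoters and 0.952% of those of genes tested. It does not overlap TCACGTGA. The 4 windows are shown because PPT1, one of the members that changed, is among them, so the choice to show them followed the results. Where TPP1 holds the word at a pair of sites, the one nearest the start is given.
PPT1, chr1:40097238-40097267, minus strand: cgcgcccgcggTCATGTGAcacagcgaaga
CD63, chr12:55729094-55729123, minus strand: ctgttaccgcgTCACATGAgggaggccggc
GPNMB, chr7:23246701-23246730, plus strand: gcttaataccaTCACATGAtcctccccgag
TPP1, chr11:6619413-6619442, minus strand: catgtgatccgTCACATGAcagcagatccg

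Single libraries stood apart over the lysosomal genes. Control replicate 1 was the highest of the 6 libraries for 27 of 58 members (46.6%, against 23.5% of all genes tested), and control replicate 3 the lowest for 19 (32.8%, against 18.7%). Knockdown replicate 2 was the highest for 16 (27.6%, against 16.0%). The median within-group SD on the log2 scale was 0.04 in knockdown and 0.08 in control libraries over the members, against 0.08 in knockdown and 0.11 in control libraries over all genes. Library totals were 12214767, 14181343 and 12029360 counts in knockdown and 10751517, 12113848 and 10450043 counts in control libraries. No row carries the name RP11-184M15.1, so its level was not analysed here and the knockdown was not checked. The 11 macrophage markers were all present, up to 1794 CPM (a gene's counts scaled to a common library total) for CSF1R; CD14, CD163 and ITGAX rose and LYZ fell (adjusted p under 0.05, edgeR). Of 10 genes of the IL-4 response, CD1A rose and CCL22, CCL17, CCL26, FABP4 and TGM2 fell by the same test. Over all genes tested, 1.22% rose and 1.61% fell. Lymphoid markers reached at most 4.60 CPM, and progenitor markers at most 61.4 CPM (AZU1). Of 7 epithelial, fibroblast and endothelial markers, 4 had no row. PECAM1 lay between 660 and 735 CPM, while COL1A1 and VWF reached at most 2.12 and 1.54 CPM. The 13 mitochondrially encoded mRNAs summed to 20795, 20121 and 20647 CPM in knockdown libraries and 19145, 23341 and 25584 CPM in control libraries. Of the 13, 12 had negative fold changes (median log2 -0.16), and MT-ND3 alone passed the test. At an unadjusted p under 0.05 (edgeR), 5 were lower and 0 higher, against 8.21% and 6.89% of all genes. Of the cytosolic ribosomal protein genes, 74 of 83 had negative fold changes (median log2 -0.09). Among the 83, 2 fell and none rose, against 1.61% and 1.22% of all genes tested. At an unadjusted p under 0.05 (edgeR), 29 were lower and 0 higher, against 8.21% and 6.89% of all genes. The part of these differences in the lysosomal values was not tested.

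Of the 59 members, 58 had enough counts to be tested. ATP6V0E2-AS1, an antisense RNA, was left out with 7, 9 and 7 counts in knockdown libraries and 5, 3 and 6 counts in control libraries. Among the 58, 3 fell and none rose in knockdown cells at an adjusted p under 0.05 (edgeR quasi-likelihood test, Benjamini-Hochberg adjustment over all 13405 genes tested). The 3 were ACP2, PPT1 and ATP6V1C1. Over all genes tested, 379 (2.83%) passed, 163 (1.22%) higher and 216 (1.61%) lower, so the members' 3 lower calls of 58 (5.17%) stand against a background of 1.61% and their 0 higher calls against 1.22%. The count of lower calls rests on few genes: it was 1 without knockdown replicate 2 or 3 and 5 without control replicate 3, where 139, 156 and 488 of all genes passed in either direction. At an unadjusted p under 0.05, 2 members were higher (3.45%, against 6.89% of all genes) and 5 lower (8.62%, against 8.21% of all genes), so the higher share was below the background and the lower one near it. DESeq2 and limma-voom also called 0 members higher. The knockdown libraries all lay above the control libraries for 4 members (6.90%, against 9.61% of all genes) and all below them for 9 (15.5%, against 10.4%), and the groups overlapped for the other 45.

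The set as a whole, with the 3 called genes included, differed little between the groups. The log2 fold change, knockdown over control, was positive for 31 members and negative for 27, with a median of 0.02, against -0.0019 over all genes tested. The median size of the fold change without its sign was 0.05 for members and 0.09 for all genes. For 49 of 58 members (84.5%) the 95% interval of the fold change lay within 0.32 of 0 on the log2 scale, against 53.5% of all genes. Much of that narrowness goes with the members' high levels: at a mean of 100 CPM or more, 40 of 41 members (97.6%) and 93.6% of the 2081 genes at that level had such an interval, and 2 of the 41 members (4.88%) passed the test against 7.30% of those genes. The summed level of all 59 members was 32993 ± 456 CPM in knockdown and 34235 ± 1000 CPM in control libraries (SD, n = 3 each), and their share of all counts was 3.33%, 3.36% and 3.29% in knockdown libraries and 3.47%, 3.37% and 3.31% in control libraries, with the knockdown range overlapping the control range. PPT1, which is part of these sums, averaged 4503 CPM in knockdown and 5232 CPM in control libraries. In bulk RNA, fewer cells that carry a transcript and less of it per cell cannot be told apart.

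**Figure D1:**
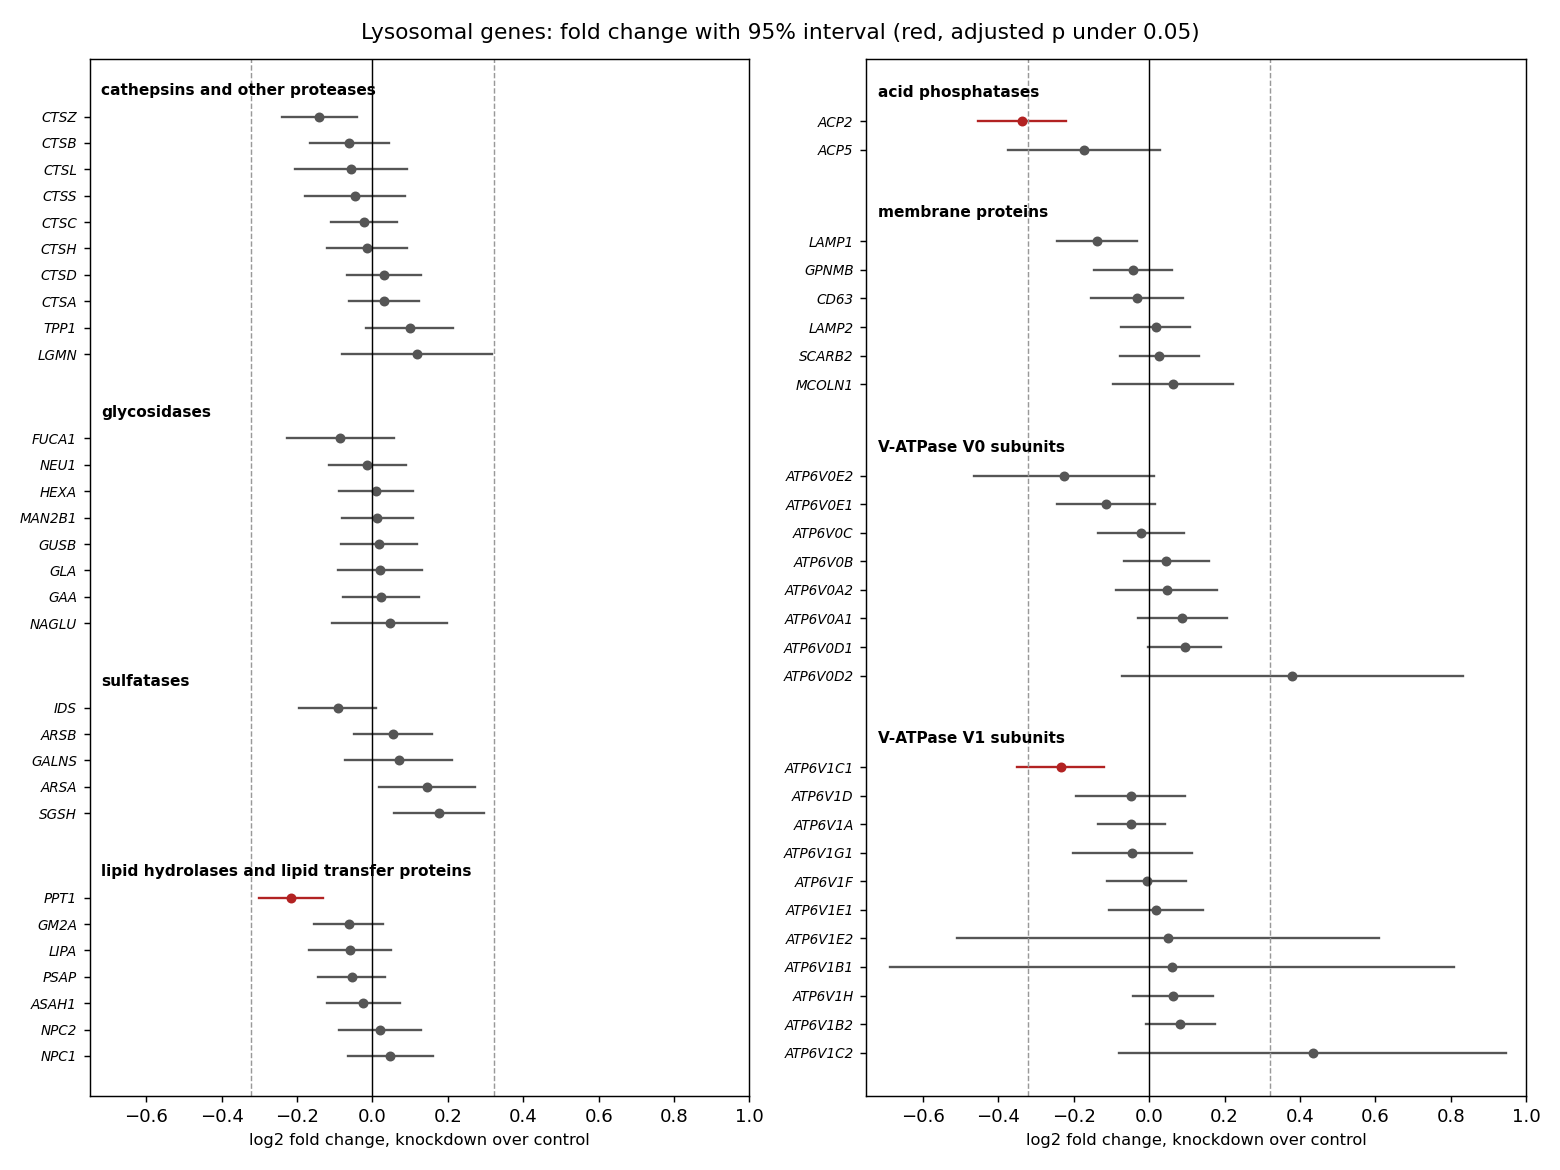
Log2 fold change (x axis, knockdown over control) of 57 tested lysosomal genes, grouped by role, each point with its 95% interval from edgeR; dashed lines mark -0.32 and 0.32 and red marks an adjusted p under 0.05. ACP2, PPT1 and ATP6V1C1 lie left of 0 in red, most other intervals span 0, and the widest belong to weakly expressed V-ATPase isoforms such as ATP6V1B1; the read-through row ATP6V1G2-DDX39B is not drawn.

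Acid phosphatases were represented by ACP2, the lysosomal acid phosphatase, and ACP5, the tartrate-resistant acid phosphatase of macrophages and osteoclasts. ACP2 had the largest drop of any member. Its level was 71.2, 67.0 and 64.6 CPM in knockdown libraries, against 82.9, 86.8 and 86.5 CPM in control libraries, and the groups did not overlap. The means were 67.6 ± 3.33 CPM in knockdown and 85.4 ± 2.19 CPM in control libraries (SD, n = 3 each), a log2 fold change of -0.34 ± 0.05 (SE), so ACP2 fell by 20.8% (adjusted p = 0.00252, edgeR). This call was kept in all 12 alternative analyses. ACP2 lies on the minus strand of chromosome 11 from 47239302 to 47248906 (GRCh38) and overlaps NR1H3, which encodes the sterol-activated nuclear receptor LXR-alpha, on the opposite strand. Whether the counting used strand is not stated, so reads of this pair may be mixed. NR1H3 itself had 59.3, 61.2 and 60.9 CPM in knockdown libraries and 61.0, 55.0 and 53.2 CPM in control libraries (log2 fold change 0.10, adjusted p = 0.483, edgeR).

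ACP5 had 29.3, 27.1 and 28.1 CPM in knockdown libraries, against 37.4, 28.7 and 29.3 CPM in control libraries. The groups overlapped by a narrow margin, the third control library and the first knockdown library having nearly equal levels, and control replicate 1 stood above the rest. The log2 fold change of -0.17 did not pass the test (adjusted p = 0.416, edgeR).

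Lipid hydrolases and lipid transfer proteins break down or hand over membrane lipids and cholesterol esters. PPT1, palmitoyl-protein thioesterase, which removes fatty acids from proteins and whose loss causes a neuronal ceroid lipofuscinosis, was the member with the highest level. It stood 10th of all genes tested by mean CPM, and 16th of 11938 genes at 2147 CPM per kilobase of transcript. PPT1 had 4547, 4459 and 4502 CPM in knockdown libraries, against 5223, 5150 and 5325 CPM in control libraries. The ranges did not overlap, and the distance between them was several times the spread within either group, with means of 4503 ± 44.1 CPM in knockdown and 5232 ± 87.6 CPM in control libraries (SD, n = 3 each). PPT1 fell by 13.9% (log2 fold change -0.22 ± 0.04 SE, adjusted p = 0.00641, edgeR). With knockdown replicate 2 left out the adjusted p was 0.0501, and with knockdown replicate 3 left out it was 0.0622, both just past the threshold at almost the same fold change. PPT1 lies on the minus strand of chromosome 1 from 40071461 to 40097727 and overlaps CAP1, a highly expressed actin regulator, on the opposite strand, whose log2 fold change was -0.03 (adjusted p = 0.814, edgeR). CAP1 lay between 12510 and 13572 CPM over the libraries. As for ACP2 and NR1H3, reads of this pair may be mixed, so the level of PPT1 is uncertain to that extent.

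No other lipid gene passed the test. GM2A, the activator of ganglioside breakdown, and PSAP, the precursor of the saposins that lift sphingolipids out of membranes, had all knockdown libraries below all control libraries but by small margins. GM2A had 635, 630 and 620 CPM in knockdown libraries and 683, 639 and 648 CPM in control libraries, a log2 fold change of -0.06. PSAP had 2306, 2320 and 2221 CPM in knockdown libraries and 2363, 2429 and 2321 CPM in control libraries, a log2 fold change of -0.05 in which the second knockdown library almost touched the lowest control library. LIPA, the acid lipase of cholesterol esters, had 1454, 1467 and 1465 CPM in knockdown libraries, against 1655, 1431 and 1488 CPM in control libraries, so the groups overlapped and the control spread was set by replicate 1. ASAH1, acid ceramidase, and the cholesterol exporters NPC1 and NPC2 had log2 fold changes of -0.02, 0.05 and 0.02. Over the 7 lipid genes, 1 fell (PPT1), none rose and 6 did not pass, against 1.61% lower and 1.22% higher of all genes tested. The log2 fold change was negative for 5 of the 7, with a median of -0.05. The summed level was 10136 ± 79.9 CPM in knockdown and 11050 ± 184 CPM in control libraries (SD, n = 3 each), with PPT1 the largest single contributor.

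**Figure D2:**
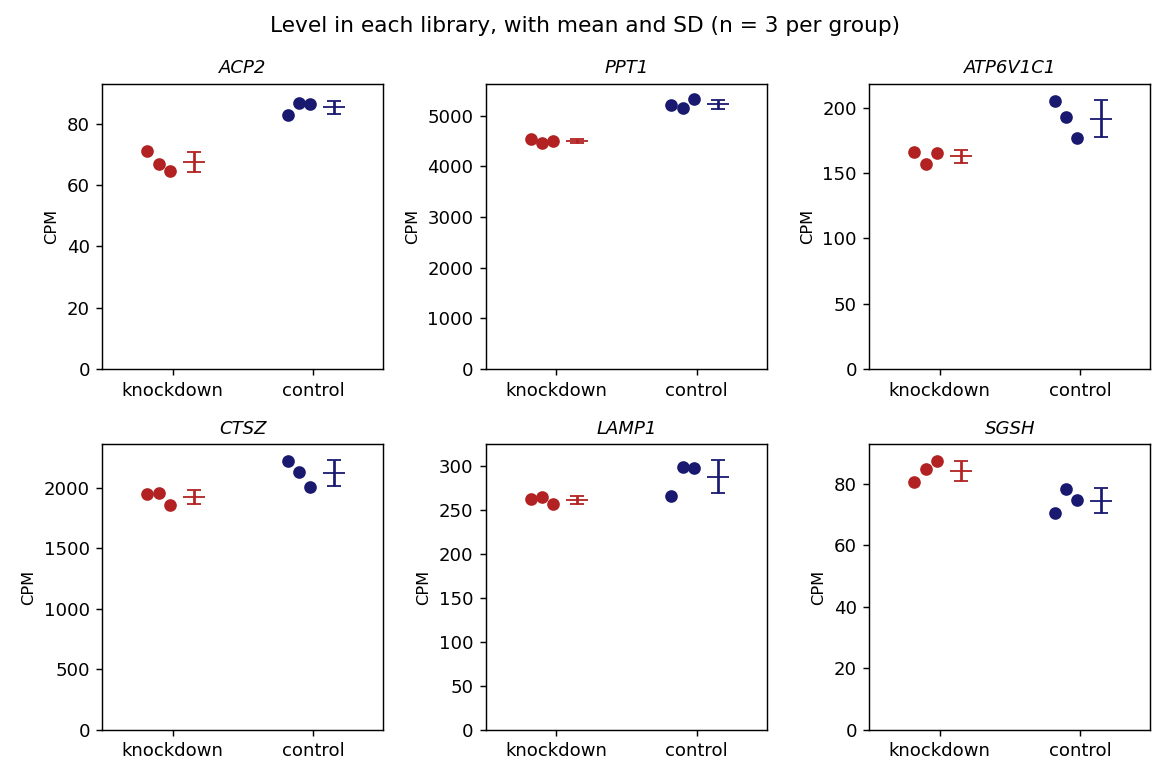
Level in CPM (y axis, from 0) of 6 members in each of 3 knockdown (red) and 3 control (blue) libraries, with the mean and SD beside the points. ACP2, PPT1 and ATP6V1C1 have knockdown points wholly below control points, and CTSZ, LAMP1 and SGSH show the largest remaining differences of members above 50 CPM that did not touch, none of which passed the test.

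Cathepsins and the other acid proteases cut proteins in the lysosome, and several of them process antigens for MHC class II. None of the 10 passed the test, and all 10 had an interval within 0.32 of 0, with 4 positive and 6 negative log2 fold changes between -0.14 and 0.12. The protease nearest to the threshold was CTSZ, cathepsin Z, a carboxypeptidase abundant in macrophages, with 1950, 1960 and 1860 CPM in knockdown libraries, against 2224, 2130 and 2009 CPM in control libraries. These ranges did not overlap, and the log2 fold change was -0.14 ± 0.05 (SE, adjusted p = 0.131, edgeR). DESeq2 placed CTSZ past the threshold (adjusted p = 0.0481), as did leaving out control replicate 3 (adjusted p = 0.0294, edgeR).

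CTSD, cathepsin D, an aspartic protease, was the second most abundant member, with 3403, 3742 and 3385 CPM in knockdown libraries and 3420, 3490 and 3397 CPM in control libraries. Its highest and its lowest value both came from the knockdown group, and its log2 fold change was 0.03. CTSB, cathepsin B, had 2732, 2860 and 2796 CPM in knockdown libraries and 3094, 2940 and 2717 CPM in control libraries, where the control values spanned the knockdown ones (log2 fold change -0.06). CTSL, CTSS, CTSC and CTSH, cysteine proteases, had log2 fold changes of -0.06, -0.05, -0.02 and -0.01, and CTSA, a carboxypeptidase that also shields other lysosomal enzymes, had 0.03. TPP1, a tripeptidyl peptidase, had 642, 647 and 633 CPM in knockdown libraries and 543, 607 and 645 CPM in control libraries, so that the highest control library lay inside the knockdown range (log2 fold change 0.10, adjusted p = 0.425, edgeR). LGMN, legumain, was the weakest of the proteases, at 17.5 ± 1.33 CPM in knockdown and 16.2 ± 0.62 CPM in control libraries (SD, n = 3 each).

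Glycosidases, which trim sugars from glycoproteins, glycogen and glycolipids, were the most even group. All 8 had overlapping libraries and an interval within 0.32 of 0, and their log2 fold changes ran from -0.09 for FUCA1, the fucosidase, to 0.05 for NAGLU, a heparan sulphate glucosaminidase. MAN2B1, the lysosomal mannosidase and the most abundant of them, averaged 1218 ± 33.5 CPM in knockdown and 1207 ± 45.4 CPM in control libraries (SD, n = 3 each). GAA, which digests glycogen, averaged 228 ± 9.44 CPM in knockdown and 225 ± 8.27 CPM in control libraries, and NEU1, the sialidase, 316 ± 1.90 CPM in knockdown and 319 ± 19.1 CPM in control libraries (SD, n = 3 each). HEXA, GLA and GUSB, the alpha subunit of hexosaminidase A, the alpha-galactosidase and the beta-glucuronidase, had log2 fold changes of 0.01, 0.02 and 0.02. The summed level of the 8 was 2380 ± 55.6 CPM in knockdown and 2368 ± 45.9 CPM in control libraries (SD, n = 3 each).

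Sulfatases remove sulphate from glycosaminoglycans and sulfatides. None of the 5 passed the test, though 4 of the 5 fold changes were positive, with a median of 0.07. SGSH, which degrades heparan sulphate, had 80.7, 84.7 and 87.2 CPM in knockdown libraries, against 70.3, 78.3 and 74.7 CPM in control libraries. All knockdown values lay above all control values, and the log2 fold change was 0.18 ± 0.06 (SE, adjusted p = 0.119, edgeR). ARSA, which degrades sulfatide, had 88.6, 96.6 and 89.9 CPM in knockdown libraries and 77.4, 88.9 and 82.5 CPM in control libraries; the lowest knockdown and the highest control library crossed by less than 1 CPM (log2 fold change 0.14, adjusted p = 0.249, edgeR). GALNS and ARSB had log2 fold changes of 0.07 and 0.05. IDS, the iduronate sulfatase, was the exception in sign, at 161 ± 3.93 CPM in knockdown and 172 ± 7.89 CPM in control libraries (SD, n = 3 each), with all knockdown libraries below all control libraries (log2 fold change -0.09, adjusted p = 0.394, edgeR).

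None of the 6 membrane proteins passed the test. LAMP1, one of the heavily glycosylated proteins that line the lysosomal membrane, had 263, 266 and 257 CPM in knockdown libraries, against 266, 299 and 299 CPM in control libraries. The control group was split, with replicate 1 only just above the knockdown range and replicates 2 and 3 well above it. The log2 fold change was -0.14 ± 0.05 (SE, adjusted p = 0.178, edgeR), and without control replicate 1 it was -0.19 with an adjusted p of 0.00772 (edgeR). In that fit 542 of all genes passed, against 379 with all libraries. LAMP2, its paralogue, which also serves in chaperone-mediated autophagy, averaged 567 ± 6.82 CPM in knockdown and 561 ± 20.6 CPM in control libraries (SD, n = 3 each). SCARB2, a scavenger receptor family protein of the lysosomal membrane, CD63, a tetraspanin, GPNMB, a glycoprotein of lipid-laden macrophages, and MCOLN1, a calcium channel, had log2 fold changes of 0.03, -0.03, -0.04 and 0.06, all with overlapping libraries.

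The proton pump was assessed through 19 subunit genes and the read-through row ATP6V1G2-DDX39B. Of the 8 V0 genes none passed the test, and of the 11 V1 genes 1 fell and none rose. Of all genes tested, 1.61% fell and 1.22% rose, and with so few genes the counts do not set V0 and V1 apart. The summed level of all 21 rows was 3549 ± 34.0 CPM in knockdown and 3536 ± 138 CPM in control libraries (SD, n = 3 each), and the median log2 fold change of the 20 tested rows was 0.05. The gene that fell was ATP6V1C1, which encodes subunit C, a part of the stalk that joins V1 to V0 and is involved in their reversible separation. ATP6V1C1 had 166, 157 and 165 CPM in knockdown libraries, against 205, 193 and 177 CPM in control libraries. The groups did not overlap, but the lowest control library lay closer to the knockdown range than to the highest control library, and the means were 163 ± 5.04 CPM in knockdown and 192 ± 14.0 CPM in control libraries (SD, n = 3 each). It fell by 15.0% (log2 fold change -0.23 ± 0.05 SE, adjusted p = 0.0284, edgeR). This call was lost when knockdown replicate 1, 2 or 3 or control replicate 2 was left out, with adjusted p-values of 0.0824, 0.184, 0.106 and 0.142 in that order, while the log2 fold change stayed between -0.25 and -0.21 in these 4 fits. ATP6V1C1 lies on the plus strand of chromosome 8 from 103021063 to 103073051.

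The libraries of 3 other subunit genes did not overlap between groups, and none of these passed the test. ATP6V0D1, subunit d of the proton channel, had 181, 191 and 182 CPM in knockdown libraries, against 169, 174 and 177 CPM in control libraries (log2 fold change 0.09, adjusted p = 0.340, edgeR). ATP6V1B2, a nucleotide-binding subunit of V1, had 719, 718 and 734 CPM in knockdown libraries, against 705, 688 and 657 CPM in control libraries (log2 fold change 0.08, adjusted p = 0.386, edgeR). ATP6V0E2, a minor isoform of subunit e, had 9.40, 8.91 and 10.3 CPM in knockdown libraries, against 10.5, 11.8 and 11.0 CPM in control libraries (log2 fold change -0.22, adjusted p = 0.367, edgeR), and its reads may be mixed with those of the antisense ATP6V0E2-AS1. Its main isoform ATP6V0E1 averaged 299 ± 9.71 CPM in knockdown and 324 ± 33.5 CPM in control libraries (SD, n = 3 each), with overlap. The catalytic subunit ATP6V1A averaged 315 ± 6.71 CPM in knockdown and 325 ± 4.22 CPM in control libraries, and the proton-binding ring subunit ATP6V0C 328 ± 10.3 CPM in knockdown and 333 ± 25.5 CPM in control libraries (SD, n = 3 each).

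The read-through row, whose reads are shared with ATP6V1G2 and the neighbouring DDX39B and whose level is therefore uncertain, had 16.2, 21.8 and 2.30 CPM in knockdown libraries and 5.48, 15.7 and 8.85 CPM in control libraries. Its libraries differed more within the knockdown group than between the groups (log2 fold change 0.43 ± 0.46 SE, adjusted p = 0.736, edgeR).

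Several subunits are encoded by alternative genes, whose levels were compared per kilobase of transcript. The length used was the median over a gene's annotated protein-coding transcripts, and the transcripts present in these cells were not determined. The shares therefore depend on that length, which was 1620 bases for ATP6V0A2, 3038 for ATP6V0A1 and 2567 for TCIRG1. ATP6V0D1 made up 98.6% of the subunit d transcripts in knockdown and 98.8% in control libraries, ATP6V0E1 98.9% in knockdown and 98.8% in control libraries of subunit e, and ATP6V1E1 99.2% in both groups of subunit E. ATP6V1B2 made up 99.7% of subunit B in both groups, and the kidney isoform ATP6V1B1 was the weakest of the 57 members with a transcript length, at 0.66 CPM per kilobase. For subunit C, ATP6V1C1 made up 97.3% ± 0.47 in knockdown and 98.3% ± 0.46 in control libraries (SD, n = 3 each), and the highest knockdown library, at 97.6%, lay below the lowest control library, at 97.9%. The minor isoform ATP6V1C2 had 3.48, 3.44 and 4.76 CPM in knockdown libraries and 3.78, 2.01 and 2.89 CPM in control libraries, which overlapped (log2 fold change 0.43 ± 0.24 SE, adjusted p = 0.429, edgeR). For subunit a, which anchors the pump in a given membrane, the largest share belonged to TCIRG1, the isoform of osteoclasts and macrophage lysosomes, whose symbol falls outside the set: 78.9% ± 0.48 in knockdown and 77.9% ± 0.31 in control libraries (SD, n = 3 each), the remainder being ATP6V0A1 and ATP6V0A2.

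**Figure D3:**
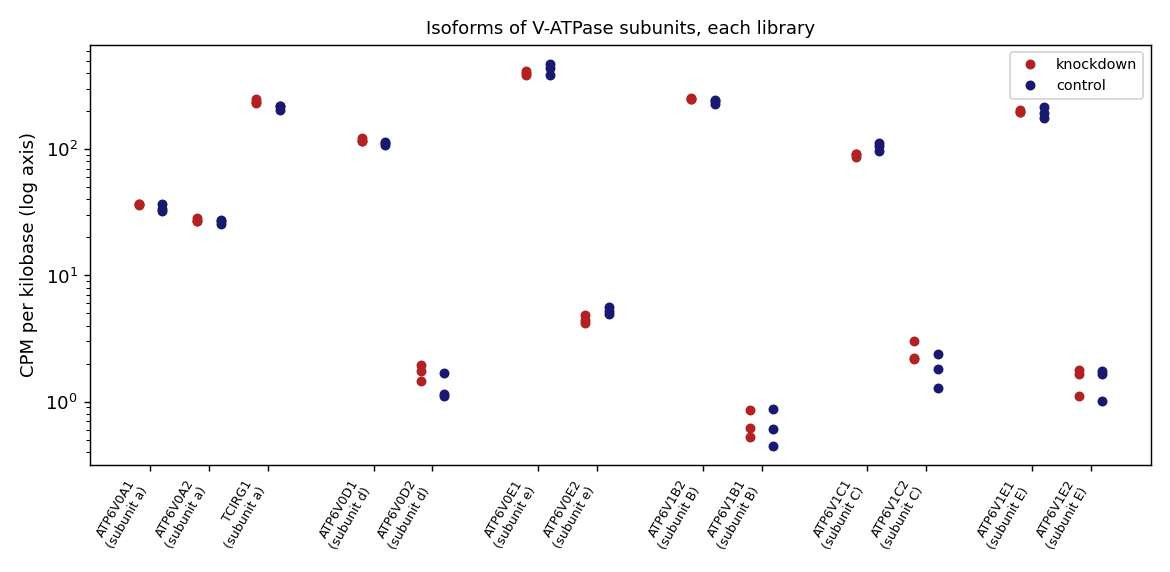
Level per kilobase of transcript (y axis, CPM per kilobase, log axis) of alternative isoforms of V-ATPase subunits in each of 3 knockdown (red, left of each pair) and 3 control (blue) libraries. For subunits d, e, B, C and E a single gene accounts for more than 96% in every library of both groups; for subunit a, TCIRG1 lies above ATP6V0A1 and ATP6V0A2.

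The fold changes were set beside the promoter words shown above. The 7 members with TCACGTGA in the promoter had log2 fold changes between -0.14 (LAMP1) and 0.09 (ATP6V0D1), with a median of 0.03 and 0 calls. The 34 other tested members with a matched promoter had a median of -0.01 and 2 calls. Of all genes tested, 2.83% were called in either direction, so these few calls do not set the groups apart. The called member ATP6V1C1 had no matched promoter and is in neither group. Of the 4 members with TCATGTGA, PPT1 fell, and GPNMB, CD63 and TPP1 had log2 fold changes of -0.04, -0.03 and 0.10. Among the 37 tested members with a matched promoter but without that word, 1 fell (ACP2). A link between the word and the change was not tested. For the factors that read these words only the mRNA was measured, not the protein or its activity. TFEB averaged 64.3 ± 3.98 CPM in knockdown and 63.9 ± 2.33 CPM in control libraries, and TFE3 131 ± 1.79 CPM in knockdown and 127 ± 3.49 CPM in control libraries (SD, n = 3 each). MITF averaged 67.7 ± 1.90 CPM in knockdown and 72.1 ± 1.65 CPM in control libraries, and TFEC 392 ± 4.37 CPM in knockdown and 391 ± 44.2 CPM in control libraries (SD, n = 3 each), and none of the 4 passed the test. For MITF all knockdown libraries lay below all control libraries (log2 fold change -0.09, adjusted p = 0.460, edgeR), while those of TFEB, TFE3 and TFEC overlapped. In the wider list of 19 genes of this factor family and of lysosomal nutrient sensing, none passed, 3 were higher and 1 lower at an unadjusted p under 0.05 (6.89% and 8.21% of all genes), and the median log2 fold change was 0.02.

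Lysosomal genes outside the set were listed in the same way, and calls among them went in both directions. Of 31 other hydrolases 2 rose and none fell, against 1.22% and 1.61% of all genes tested (17 positive, 14 negative, median 0.07). At an unadjusted p under 0.05 (edgeR), 8 of the 31 were higher and 3 lower, against 6.89% and 8.21% of all genes. The knockdown libraries all lay above the control libraries for 8 and all below them for 3, against 9.61% and 10.4% of all genes. The list includes TPP2, a cytosolic peptidase. SCPEP1, a serine carboxypeptidase, was among those that rose, with 160, 155 and 160 CPM in knockdown libraries, against 139, 130 and 133 CPM in control libraries (log2 fold change 0.24 ± 0.05 SE, adjusted p = 0.00911, edgeR). Its groups did not overlap, and the call was lost without knockdown replicate 1 or 3 or control replicate 2 (adjusted p 0.0646, 0.0703 and 0.0726).

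Of 22 other lysosomal membrane proteins, 2 rose and 1 fell, against 1.22% and 1.61% of all genes tested, with a median log2 fold change of 0.03. SLC36A1, an exporter of small amino acids from the lysosome, showed the largest change of any lysosomal gene examined. SLC36A1 had 172, 169 and 170 CPM in knockdown libraries, against 101, 113 and 111 CPM in control libraries (log2 fold change 0.65 ± 0.05 SE, adjusted p = 4.15e-06, edgeR), with the groups far apart. OSTM1, the partner subunit of the lysosomal chloride-proton exchanger CLCN7, had 124, 125 and 127 CPM in knockdown libraries, against 198, 166 and 163 CPM in control libraries, so all knockdown values lay below all control values (log2 fold change -0.49 ± 0.06 SE, adjusted p = 0.000500, edgeR). Both calls were kept in all 12 alternative analyses. SLC17A5, the sialic acid exporter, had 177, 189 and 180 CPM in knockdown libraries, against 172, 144 and 147 CPM in control libraries (log2 fold change 0.25 ± 0.06 SE, adjusted p = 0.0414, edgeR). Its control replicate 1 lay near the knockdown range, and the call was lost with no filter on low counts (adjusted p = 0.0522) and without knockdown replicate 1, 2 or 3 or control replicate 2 or 3 (0.0913, 0.235, 0.138, 0.224 and 0.0746).

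The route that brings hydrolases to the lysosome was followed through 13 genes of mannose 6-phosphate tagging and sorting. Of these, 1 was higher and 1 lower, against 1.22% and 1.61% of all genes tested. SORT1, sortilin, a sorting receptor for several lysosomal proteins, had 249, 254 and 248 CPM in knockdown libraries, against 206, 203 and 203 CPM in control libraries (log2 fold change 0.30 ± 0.04 SE, adjusted p = 0.000825, edgeR), in all 12 alternatives. AP1G1, a subunit of the adaptor that forms carriers at the trans-Golgi network, had 133, 136 and 139 CPM in knockdown libraries, against 155, 152 and 167 CPM in control libraries (log2 fold change -0.22 ± 0.05 SE, adjusted p = 0.0253, edgeR); the call was lost without knockdown replicate 1, 2 or 3 or control replicate 2 or 3 (0.133, 0.128, 0.0876, 0.0600 and 0.0570). A list of 4 further pump genes held the accessory subunit genes ATP6AP1, ATP6AP1L and ATP6AP2, and TCIRG1, the subunit a isoform. None of the 4 passed the test, although all 4 log2 fold changes were positive (median 0.12). TCIRG1 averaged 614 ± 22.2 CPM in knockdown and 553 ± 20.1 CPM in control libraries (SD, n = 3 each). All its knockdown libraries lay above all its control libraries (log2 fold change 0.15, adjusted p = 0.0929, edgeR). None of the 4 cystatins in the table, inhibitors of cysteine cathepsins, passed, and all 4 fold changes were negative (median -0.09).

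**Figure D4:**
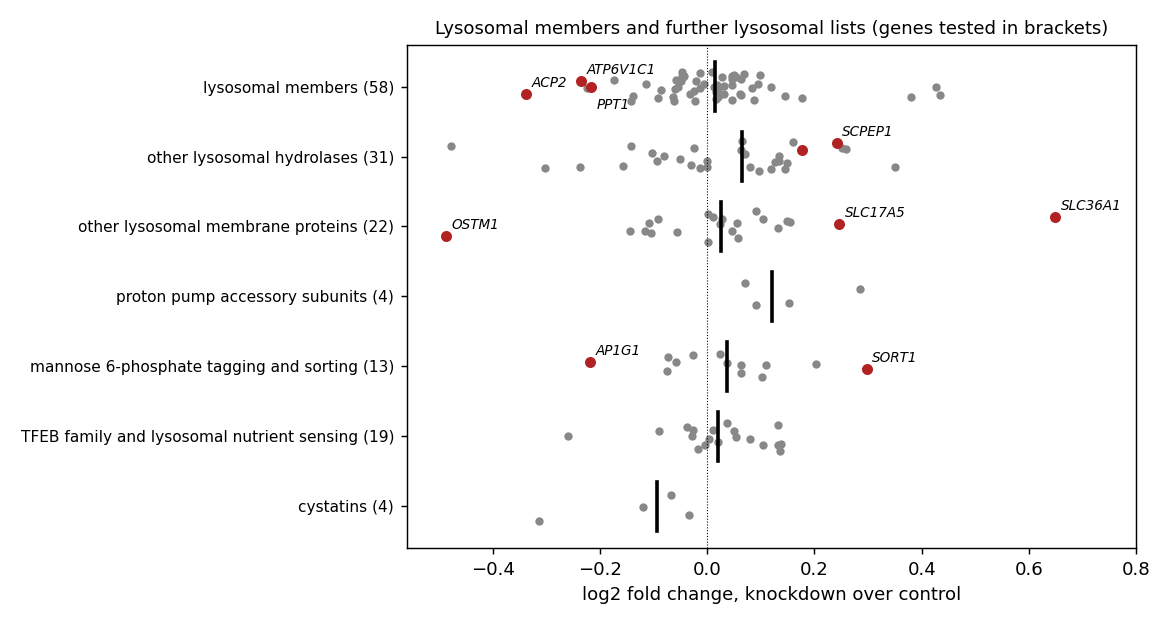
Log2 fold change (x axis, knockdown over control) of every tested gene in the lysosomal set and in 6 further lysosomal lists, with the median of each list as a bar; red marks an adjusted p under 0.05 (edgeR), labelled where the gene is named in the text. The set has red points only below 0 (ACP2, ATP6V1C1, PPT1), whereas the further lists have red points on both sides, from OSTM1 at -0.49 to SLC36A1 at 0.65.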

How the data were processed

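Poly-A RNA from 6 THP-1 libraries (3 knockdown, 3 control, grouped by title) was analysed. The authors deposited estimated counts per gene symbol, all whole numbers (100%), with a lowest row sum of 10; the submitters' processing notes name Salmon 0.11.2, DESeq2 and hg38, without roles. No columns were left unused. Salmon splits reads between genes that share sequence.

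Tests ran on the deposited counts in edgeR 4.0.16 (TMM, filterByExpr by group, quasi-likelihood, group only, two-sided, Benjamini-Hochberg over 13405 genes, threshold 0.05). The SE is the size of the log2 fold change divided by the square root of F, and the 95% intervals use the t distribution. CPM uses TMM-scaled totals. A floor of 3 counts equals 0.21 to 0.29 CPM, for counting error only. Positions and transcript lengths came from GENCODE 29 on GRCh38 (59 members matched, 57 with a length). The length is the median over a gene's protein-coding transcripts in the basic annotation. Sequences are from RefSeq, with 17 members unmatched: CTSB, CTSS, HEXA, LAMP2, ASAH1, PSAP, ARSA, SGSH, LGMN, NAGLU, ATP6V0D2, ATP6V0E1, ATP6V1A, ATP6V1B2, ATP6V1C1, ATP6V1E2 and ATP6V1H.

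The members and lists were chosen with earlier results of these data known. Genes named were members past the threshold, the 6 with the smallest p in each direction, the 6 with the highest CPM, V-ATPase genes whose groups did not overlap and genes past the threshold in other lists; further members are named to describe their role groups. One gene past the threshold in another list is not reported here. The tests were first run on simulated data. Libraries of a group were not duplicates (chi-square per degree of freedom 1.90 to 6.79). Alternatives were RLE factors, DESeq2 1.42.0, limma-voom (limma 3.58.1), no filter, at least 1 CPM in at least 3 libraries, the replicate number as a block, and leaving out each library. R 4.3.3, Python 3.11.15, numpy 2.4.6, pandas 2.3.3 and matplotlib 3.10.9 were used.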

Additional observations from a re-analysis of the deposited data

How the results depend on the processing

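No member was called higher under any of the 12 alternatives. The count of members called lower was 3 with RLE factors, limma-voom, no filter, the CPM filter and the replicate block, 4 with DESeq2 (CTSZ added), and 1 to 5 when single libraries were left out: 1 (ACP2) without knockdown replicate 2 or 3, and 5 without control replicate 3 (ACP2, PPT1, ATP6V1C1, CTSZ and ATP6V0E1). The median log2 fold change of the members ran from -0.0146 to 0.0284 over the fits that left out a library, and that of the V-ATPase rows from 0.0033 to 0.0646. For the 20 genes followed singly, 209 of 240 values kept direction and side of the threshold, 28 lost the call, 3 gained it and 0 changed sign. Calls over all genes moved by more than 1.5 times when knockdown replicate 2 or 3, knockdown replicate 1 or control replicate 2 was left out (139, 156, 194 and 165, against 379), and came to 345 with DESeq2. Same-numbered libraries were correlated at 0.05, 0.10 and 0.07 in their deviations from the group means, not all above 0.1, so the numbers were not taken to pair them, although every library correlated best with its own number; with the replicate number as a block, 3 members were lower, 0 higher, and 488 genes were called in all. Depth limits the weak V-ATPase isoforms, such as ATP6V1B1, ATP6V1E2 and ATP6V1C2, for which the interval reached beyond 0.32 from 0 on the log2 scale.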
